A study of Mus musculus with 23 samples.

Results

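A group of 10 skeletal muscle genes, Acta1, Ckm, Mylpf, Myh1, Myh2, Myh4, Tnnt3, Tnnc2, Tnni2 and Atp2a1, were followed across mammary tumor libraries as a readout of muscle tissue adjoining the tumors. The genes were taken by symbol from the 47643 gene identifiers in the tables, and each was present. They were chosen for what they encode, with earlier results of these data known. Their levels differed 314-fold in sum between single tumors and 11.5-fold or more within every group, and high or low values were shared by all 10 from tumor to tumor. No comparison of groups gave a difference in these genes that passed the test against the spread between tumors.

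Whole transcriptomes were measured in 23 libraries from tumors of female C57BL/6 mice carrying the PyMT transgene, an oncogene that gives spontaneous mammary carcinoma. The question of the study was how tumors differ when IL-38, a cytokine of the IL-1 family, is neutralized or deleted, and whether γδ T cells take part. In the neutralization experiment, PyMT mice with intact IL-38 received a human IgG1 isotype control (IgG, n = 5) or the antibody e04 (anti-IL-38, n = 6), 100 µg into the peritoneum once a week for 5 weeks after a first tumor had reached 0.6 cm. In the genotype experiment, PyMT WT mice received IgG (WT + IgG, n = 4), and PyMT IL-38 KO mice received IgG (IL-38 KO + IgG, n = 4) or the antibody UC7-13D5 against the γδ T cell receptor (IL-38 KO + anti-γδTCR, n = 4). That control was Armenian hamster IgG, and injections began at 13 weeks of age with 500 µg and went on weekly with 200 µg for 5 weeks. All groups share the PyMT transgene, and no tumor without an injected antibody was included. RNA was isolated with TRIzol from dissociated whole tumors and sequenced from the 3′ ends of transcripts with QuantSeq. The labels give the tissue as PyMT tumors, with no sorting of cells and no word on how much neighbouring tissue was removed.

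Skeletal muscle fibers contract when myosin thick filaments pull on actin thin filaments in repeated units called sarcomeres. Calcium released into the fiber binds troponin on the thin filament and lets myosin engage, and a pump returns the calcium to its store afterwards. Fast fibers use their own forms of myosin, troponin and calcium pump, and the mouse mammary fat pads lie under the skin close to the muscles of the body wall. Mammary epithelium has no sarcomeres. Its contractile cells, the myoepithelial cells, use smooth muscle proteins instead.

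The members fall into 4 roles. Acta1 is the skeletal muscle actin of the thin filament, and Tnnc2, Tnni2 and Tnnt3 are the calcium-binding, inhibitory and tropomyosin-binding subunits of fast troponin. Myh1, Myh2 and Myh4 are fast myosin heavy chains (2X, 2A and 2B) and Mylpf is the fast regulatory light chain, all of the thick filament. Atp2a1 is the calcium pump of the fast sarcoplasmic reticulum, and Ckm is the muscle creatine kinase that regenerates ATP from phosphocreatine. On GRCm38 in the GENCODE M21 annotation, Myh2 (chr11:67171027-67197517, + strand), Myh1 (chr11:67200052-67224575, +) and Myh4 (chr11:67238029-67260446, +) lie side by side, and Tnni2 (chr7:142441808-142444410, +) and Tnnt3 (chr7:142498836-142516009, +) are close neighbours. Ckm (chr7:19404776-19422841, +), Mylpf (chr7:127208890-127214298, +) and Atp2a1 (chr7:126445858-126463108, −) lie elsewhere on chromosome 7, Acta1 (chr8:123891769-123894751, −) on chromosome 8 and Tnnc2 (chr2:164777161-164779967, −) on chromosome 2. These spans are whole genes with their exons and introns. The submitters' notes name GRCm39 for the alignment, so the coordinates of GRCm38 serve only to place the genes.

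Because these genes moved together, the stretches before the transcription starts of 4 of them are shown: an actin and a troponin of the thin filament, a myosin and the creatine kinase. The 250 bases before the RefSeq start (GRCm38.p6) are written on the strand of the gene, 5′ to 3′, and capitals mark E-boxes, CANNTG, which reads the same on both strands and is the kind of motif bound by myogenic factors such as MyoD, and the MEF2 consensus, searched on both strands.
Acta1, chr8:123894776-123895025, − strand: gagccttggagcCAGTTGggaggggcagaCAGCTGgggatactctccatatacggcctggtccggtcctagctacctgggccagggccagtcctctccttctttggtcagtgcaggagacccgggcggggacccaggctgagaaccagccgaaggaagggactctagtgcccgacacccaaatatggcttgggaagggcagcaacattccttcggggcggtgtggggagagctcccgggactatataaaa
Myh4, chr11:67237562-67237811, + strand: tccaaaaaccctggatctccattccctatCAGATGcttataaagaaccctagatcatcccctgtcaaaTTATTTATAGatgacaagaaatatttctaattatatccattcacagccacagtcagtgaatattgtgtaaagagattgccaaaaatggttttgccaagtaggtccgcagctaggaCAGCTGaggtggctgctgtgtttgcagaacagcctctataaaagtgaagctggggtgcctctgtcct
Tnnc2, chr2:164779735-164779984, − strand: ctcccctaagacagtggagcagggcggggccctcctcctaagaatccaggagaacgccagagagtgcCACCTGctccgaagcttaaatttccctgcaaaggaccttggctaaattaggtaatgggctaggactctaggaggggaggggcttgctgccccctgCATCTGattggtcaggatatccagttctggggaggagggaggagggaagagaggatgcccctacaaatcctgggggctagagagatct
Ckm, chr7:19410844-19411093, + strand: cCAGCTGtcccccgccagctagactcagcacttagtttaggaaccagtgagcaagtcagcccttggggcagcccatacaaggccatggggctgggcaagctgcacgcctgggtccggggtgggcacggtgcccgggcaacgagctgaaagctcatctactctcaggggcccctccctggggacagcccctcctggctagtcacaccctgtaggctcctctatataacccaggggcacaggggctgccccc
The E-boxes of Acta1 began 238 and 221 bases before the start, those of Myh4 221 and 67, those of Tnnc2 183 and 88, and that of Ckm 249. The MEF2 motif of Myh4 began 182 bases before the start. Of the 8 members with a RefSeq promoter entry, 6 held an E-box, as did 66.2% of 32851 mouse promoters of the same length, and 2 (Myh4 and Myh1) held the MEF2 motif, against 2.92% of all. Tnni2 and Tnnt3 had no entry. The starts used for Ckm and Tnnc2 lie inside the longer spans that GENCODE gives these genes, as do those of Mylpf, Myh1 and Atp2a1. The E-boxes marked for Ckm and Tnnc2 lie inside those spans too. A match describes these letters only and is not a measured binding site.

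Depth was 6273049 to 15879164 reads counted on genes per library. A set of 5 libraries, the 4 of IL-38 KO + anti-γδTCR and replicate 4 of IL-38 KO + IgG, had 6273049 to 8794202 reads and 1.31% to 1.98% of reads on processed pseudogenes, against 10138353 to 15879164 reads and 0.0943% to 0.191% in the other 18. The RNA of IL-38 itself, Il1f10, had 0 reads in all 23 libraries, which allows up to 0.189 to 0.478 CPM (3 counts; CPM, the usual scaling of counts to the total of the library), so the genotype labels could not be checked. Luminal epithelial markers summed to 1646 to 4138 CPM in every library. The labels do not say that each library is a separate mouse, so p-values measure the spread between these libraries.

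The sum of the 10 genes, in CPM, was 9.17, 70.7, 139, 125 and 13.7 in IgG replicates 1 to 5. In the anti-IL-38 group it was 7.29 at the lowest, 44.2 at the median and 470.0 at the highest. Both groups thus held tumors with little muscle RNA and tumors with much of it. It was 3.13, 53.2, 86.8 and 67.2 in WT + IgG replicates 1 to 4, and 105, 532, 326 and 15.1 in IL-38 KO + IgG replicates 1 to 4. With anti-γδTCR in IL-38 KO mice it was 277, 85.8, 411 and 984. The column of replicate 3 (411 CPM) is marked rep in its table, and whether that library was a repeat is not given in the sources used here. Without it the median difference of the members from IL-38 KO + IgG was 1.28 on the log2 scale, and no member was called. The lowest and the highest tumor of the series were thus a WT control, with 36 reads on the 10 genes, and an IL-38 KO tumor with γδ T cell receptor blockade, with 8650. The highest tumor of a group held 11.5 to 64.5 times the level of its lowest.

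**Figure D1:**
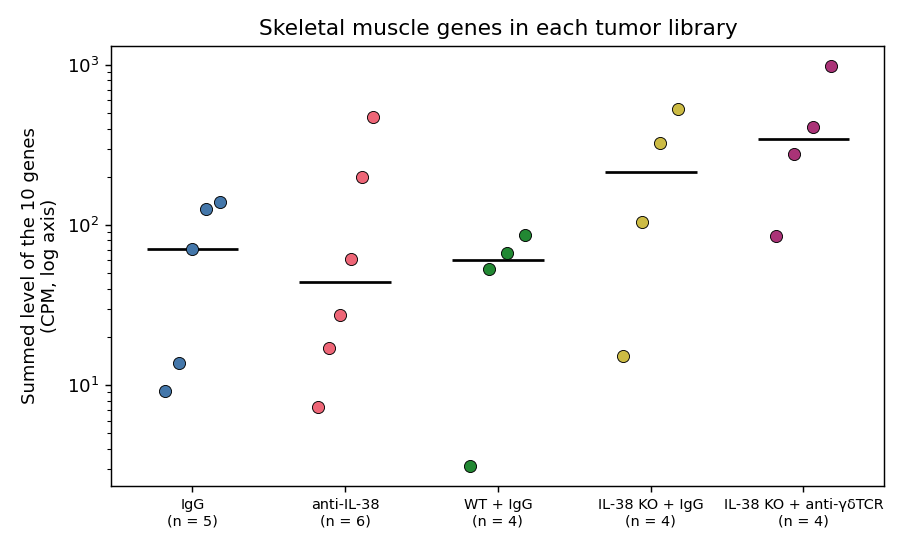
Summed level of the 10 skeletal muscle genes (CPM, log axis) in each of 23 tumor libraries, by group; points are libraries and bars are group medians. Every group spans more than an order of magnitude, from 3.13 CPM in a WT + IgG tumor to 984 CPM in an IL-38 KO + anti-γδTCR tumor, and all groups overlap.

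Ordered by the median of the sum, the groups ran from anti-IL-38 (44.2 CPM) through WT + IgG (60.2), IgG (70.7) and IL-38 KO + IgG (216) to IL-38 KO + anti-γδTCR (344). Each group overlapped its neighbours in that order. IL-38 KO + IgG had the fourth and IL-38 KO + anti-γδTCR the highest median for each of the 10 genes, while the order of the other groups varied by gene. In whole-tumor RNA a smaller amount of muscle and less RNA per fiber cannot be told apart.

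Among thin filament genes, Acta1 was at 0.932, 18.7, 26.5, 38.2 and 1.56 CPM in the IgG replicates, and at 1.35 (lowest), 10.7 (median) and 83.1 (highest) with anti-IL-38. It was at 0.348, 12.01, 22.7 and 13.8 CPM in WT + IgG, at 19.1, 119, 89.5 and 3.94 in IL-38 KO + IgG, and at 60.1, 16.4, 79.9 and 267 with anti-γδTCR. The skeletal actin was thus nearly missing from some tumors of the IgG, anti-IL-38 and WT groups and abundant in others of the same groups.

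Tnnc2, the calcium sensor of fast troponin, was at 0.699, 1.80, 10.2, 6.95 and 0.0744 CPM in IgG, and at 0.0792, 4.77 and 73.0 (lowest, median and highest) with anti-IL-38. It was at 0, 3.82, 3.23 and 8.17 CPM in WT + IgG, at 7.45, 49.6, 11.1 and 0.928 in IL-38 KO + IgG, and at 24.7, 9.93, 40.5 and 88.2 with anti-γδTCR. The gene overlaps Ube2c, a cell cycle gene on the opposite strand with up to 2622 reads in a library. Whether counting used the strand is not given in the sources used here, and where it did not, reads of the pair cannot be told apart.

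Tnni2, the inhibitory subunit, was the member with the least spread. It was at 3.42, 10.7, 16.3, 8.97 and 4.99 CPM in IgG, at 2.61, 6.28 and 48.4 (lowest, median and highest) with anti-IL-38, and at 0.783, 7.02, 6.76 and 6.85 in WT + IgG. It was at 7.45, 43.1, 31.1 and 2.44 CPM in IL-38 KO + IgG and at 13.6, 4.67, 25.2 and 62.2 with anti-γδTCR. No library was without reads of this gene. Tnnt3, which ties troponin to tropomyosin, was at 1.40, 6.64, 14.1, 17.7 and 1.49 CPM in IgG, at 1.19, 5.29 and 48.7 with anti-IL-38, and at 0.783, 7.33, 11.3 and 7.11 in WT + IgG. It was at 13.8, 64.0, 37.2 and 0.696 CPM in IL-38 KO + IgG and at 44.6, 10.5, 49.3 and 123 with anti-γδTCR. For both subunits 1 IL-38 KO + IgG tumor, replicate 4, lay among the WT values or below them.

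In the thick filament, Myh4, the 2B myosin of the fastest fibers, was at 0.777, 12.3, 34.3, 13.2 and 2.01 CPM in IgG, and at 0.317, 6.10 and 109.7 (lowest, median and highest) with anti-IL-38. It was at 0, 10.5, 25.0 and 17.1 CPM in WT + IgG, at 31.2, 135, 69.3 and 3.48 in IL-38 KO + IgG, and at 69.5, 25.8, 122 and 226 with anti-γδTCR. Of the 4 IL-38 KO + IgG tumors, 3 exceeded the highest WT value, and the remaining tumor lay below 3 of the 4. Mylpf, the light chain bound to these heavy chains, was at 1.63, 12.4, 14.5, 18.01 and 3.35 CPM in IgG, at 1.19, 6.46 and 54.5 with anti-IL-38, and at 0.870, 8.11, 5.38 and 6.15 in WT + IgG. It was at 6.02, 46.6, 42.8 and 1.62 CPM in IL-38 KO + IgG and at 10.9, 5.26, 38.3 and 86.3 with anti-γδTCR.

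The other fast heavy chains were lower. Myh1 (2X) ranged from 0 to 7.47 CPM in IgG, 0.554 to 11.7 with anti-IL-38, 0 to 2.81 in WT + IgG, 0.232 to 10.4 in IL-38 KO + IgG and 1.05 to 23.8 with anti-γδTCR. Myh2 (2A) ranged from 0 to 4.56, 0 to 8.67, 0.348 to 1.17, 0.317 to 11.7 and 2.10 to 15.5 CPM in the same groups. The 3 genes are alike in sequence: of the 75-base stretches in the last 500 bases of their transcripts, 9.44% of those of Myh1, 10.96% of Myh2 and 2.57% of Myh4 occur in another gene, in each case a myosin heavy chain, so a part of their reads may be split among them. Of the other members only Acta1 had such stretches (0.704%, shared with Actb and Gm47692).

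Atp2a1, the calcium pump, was at 0, 5.41, 14.96, 7.55 and 0.149 CPM in IgG, at 0, 1.74 and 23.7 (lowest, median and highest) with anti-IL-38, and at 0, 2.18, 6.68 and 3.78 in WT + IgG. It was at 12.3, 38.0, 23.3 and 0.232 CPM in IL-38 KO + IgG and at 28.6, 6.77, 30.4 and 65.8 with anti-γδTCR. It overlaps Rabep2 on the opposite strand, which had up to 445 reads in a library. Ckm, the creatine kinase, was at 0, 0.505, 1.57, 2.24 and 0.0744 CPM in IgG, at 0, 0.858 and 8.49 with anti-IL-38, and at 0, 0.468, 2.38 and 0.351 in WT + IgG. It was at 3.57, 14.5, 10.5 and 1.16 CPM in IL-38 KO + IgG and at 7.74, 3.39, 11.6 and 25.7 with anti-γδTCR. Of all members, Ckm came nearest to separating IL-38 KO + IgG from WT + IgG, and 1 WT tumor lay above 1 IL-38 KO tumor.

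**Figure D2:**
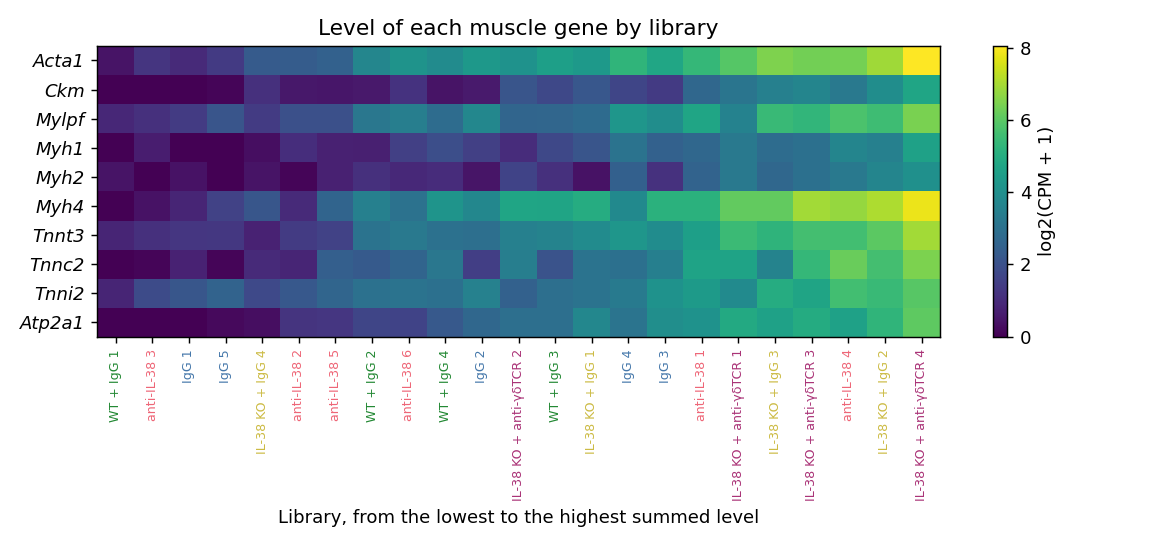
Level of each of the 10 genes, as log2(CPM + 1), in the 23 libraries ordered from the lowest to the highest summed level, with library names colored by group. Values in all rows are mostly higher to the right. The darkest columns, WT + IgG replicate 1, anti-IL-38 replicate 3 and IgG replicates 1 and 5, hold all of the values of 0.

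For 6 of the 10 genes there was no read in at least 1 library. Ckm and Atp2a1 were both at 0 in IgG replicate 1, anti-IL-38 replicate 3 and WT + IgG replicate 1. Myh1 was at 0 in IgG replicates 1 and 5 and WT + IgG replicate 1, Myh2 in IgG replicate 5 and anti-IL-38 replicate 3, and Myh4 and Tnnc2 in WT + IgG replicate 1. No member was at 0 in an IL-38 KO tumor. Across the 23 libraries the 45 pairs of members had Pearson correlations of log2(CPM + 1) from 0.862 to 0.976, with a median of 0.918, and Spearman correlations from 0.834 to 0.987. These are descriptions over libraries that share depth and groups, and Myh1, Myh2 and Myh4 also share sequence.

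The spread within groups was wide against that of other genes. After removing the means of the 4 groups of the neutralization and WT-versus-KO comparisons, the standard deviation of log2(normalized count + 1) was 1.48 for Tnni2, 2.36 for Acta1, 2.87 for Myh4 and 3.09 for Atp2a1, with a median of 2.30 over the members. The median over all 16352 genes tested was 0.39. From 96.6% (Tnni2) to 99.99% (Atp2a1) of these genes had a smaller spread than the member.

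The make-up of the muscle reads was not the same in every tumor. Tnni2 held 37.3% of the 118 member reads of IgG replicate 1 (95% exact interval 28.6% to 46.7%) and 4.92% of the 2216 member reads of IL-38 KO + anti-γδTCR replicate 1 (4.06% to 5.90%). These were the highest and the lowest Tnni2 share of all libraries, so the intervals do not test a difference between them. Myh4 held 8.47% (4.14% to 15.03%) and 25.1% (23.3% to 27.0%) in the same pair of libraries. Against the sum of the other 9 members over all libraries, log2(CPM + 1) of Tnni2 had a slope of 0.55, that of Acta1 0.99 and that of Myh4 1.10. Slopes of the remaining members ran from 0.54 for Myh2 to 0.89 for Atp2a1. The 1 added before the logarithm can flatten the slope of low genes. The myosin make-up was read in fewer libraries. In the 16 libraries with at least 100 reads on Myh1, Myh2 and Myh4, Myh4 was the most abundant in 16, with 52.4% to 89.9% of these reads (median 85.2%). Myh1 had 3.63% to 29.6% and Myh2 0.907% to 18.05%. The other 7 libraries had fewer than 100 such reads and are not given here. The lowest Myh4 share belonged to IgG replicate 4 (95% exact interval 46.9% to 57.8% of 338 reads). The intervals cover counting error only. Shares are of reads, and each transcript gives reads from its 3′ end, so no length correction was made.

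**Figure D3:**
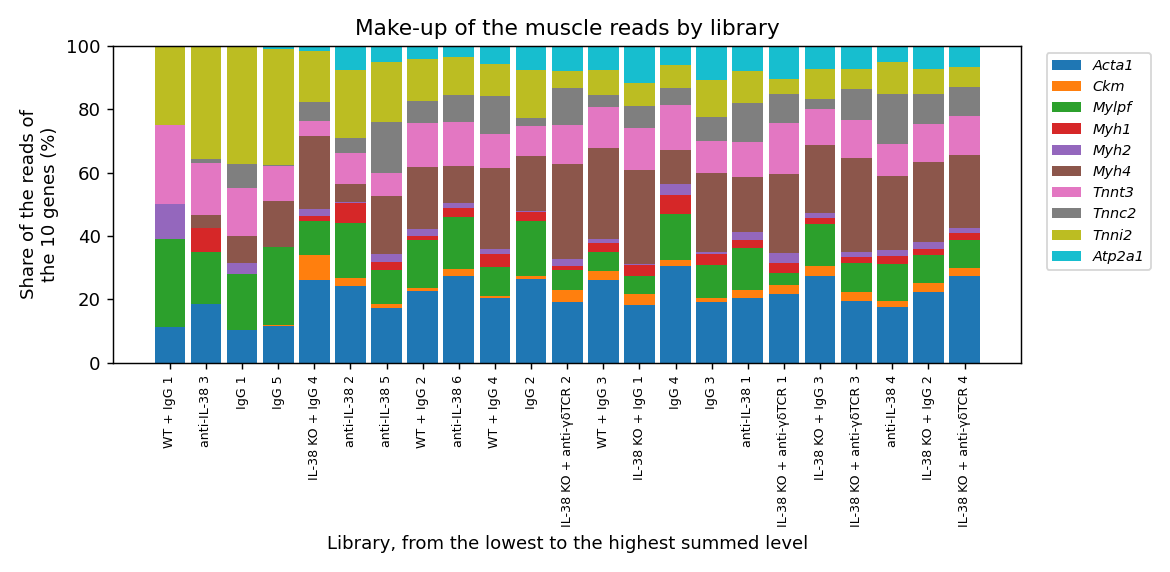
Share of each gene (%) in the reads of the 10 genes, in the 23 libraries from the lowest to the highest summed level; each bar adds to 100%. Tnni2 (olive) takes 37.3% in IgG replicate 1 and 4.92% in IL-38 KO + anti-γδTCR replicate 1, while the leftmost bar rests on 36 reads.

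Neutralizing IL-38 was compared first, in 6 anti-IL-38 against 5 IgG tumors. No muscle gene passed the test, and the groups overlapped for all 10. The median of the summed level was 0.626 times as high with anti-IL-38 (44.2 against 70.7 CPM), and 2 of 6 tumors exceeded the highest IgG value. The fitted differences went the other way. Differences in log2(normalized count + 1) were all above 0, from 0.01 ± 1.32 (standard error) for Myh4 to 1.31 ± 1.43 for Tnnc2, with limma adjusted p from 0.712 to 0.998. Myh4 was at 1.07 in edgeR and 1.09 in DESeq2. Myh1 and Atp2a1 were lower in edgeR than in limma (0.36 against 1.30, and 0.40 against 0.48), and the other members were higher. Every standard error in limma was close to its difference or above it. Over the 10 members the median was 0.49, against 0.00 over all 16002 genes tested, of which 50.2% were higher with anti-IL-38. All 10 members had passed the filter on low values here and in each comparison below. Limma called 0% of all genes (10.5% at an unadjusted p under 0.05), edgeR 0% (10.7% unadjusted) and DESeq2 0.469%, and 0 members by any of these; 1.04% of all genes had groups that did not overlap. The median changed sign without anti-IL-38 replicate 4 (−0.19), anti-IL-38 replicate 1 (−0.03) or IgG replicate 1 (−0.18) or 5 (−0.12). It was 1.12 without anti-IL-38 replicate 3. In this comparison 8 of 8 smooth muscle genes (median 0.84, 1 unadjusted) and 8 of 8 luminal epithelial genes (0.66, 2 unadjusted) also had differences above 0, with none past the test, as did 6 of 10 adipocyte genes (0.12). Their part in the muscle values was not tested.

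Deletion of IL-38 was compared in 4 IL-38 KO + IgG and 4 WT + IgG tumors. The median of the summed level was 3.58 times as high in IL-38 KO tumors (216 against 60.2 CPM), and 3 of 4 exceeded the highest WT value. The remaining tumor, replicate 4 with 15.1 CPM, lay below 3 of the 4 WT tumors. All 10 members had differences above 0, from 0.99 ± 1.01 for Myh2 to 3.46 ± 0.98 for Ckm, with a median of 2.05 against 0.01 over the 16563 genes tested (50.6% higher). Myh2 was at 2.26 in edgeR and 2.27 in DESeq2, and Myh4, at 2.87 in limma, was at 2.20 in both. None passed the test. Ckm had an unadjusted p of 0.005 and an adjusted p of 0.255 in limma, 0.283 in edgeR and 0.153 in DESeq2. Acta1 differed by 2.26 ± 1.27 (limma adjusted p = 0.480), Myh4 by 2.87 ± 1.63 (0.485), Atp2a1 by 2.37 ± 1.56 (0.549) and Tnnc2 by 2.23 ± 1.38 (0.524). Limma called 0.00604% of all genes, edgeR 0% and DESeq2 1.84%, with 0 members called. At an unadjusted p under 0.05, 1 of 10 members passed in limma (12.1% of all genes) and 6 of 10 in edgeR (13.4%). The members rose and fell together over the libraries (r of 0.862 to 0.976 between pairs). Counts of members are thus not 10 separate results, here or in the other comparisons. No member had groups that did not overlap, against 7.06% of all genes. The median difference was 0.89 without WT + IgG replicate 1 and 3.07 without IL-38 KO + IgG replicate 4.

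Markers of other tissues also differed in level between the same tumors. All 10 adipocyte genes had differences below 0 (median −1.09, 5 at an unadjusted p under 0.05), and their sum was 79.9 to 324.6 CPM in IL-38 KO + IgG against 365 to 499 CPM in WT + IgG. All 8 smooth muscle genes also had differences below 0 (median −0.81, 5 unadjusted), with sums of 227 to 403 against 365 to 823 CPM. Peripheral nerve genes went with the muscle genes, with sums of 94.6 to 188 against 77.1 to 95.6 CPM, and 5 of 6 had differences above 0 (median 0.50), 2 of them at an unadjusted p under 0.05 and the remaining gene, Mbp, below 0 at such a p. No gene of these 3 lists passed the test, with the lowest limma adjusted p at 0.210, and none was at 0 throughout these groups. The part of these tissues in the muscle values was not tested.

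Blockade of the γδ T cell receptor was compared in 4 IL-38 KO + anti-γδTCR tumors against the same 4 IL-38 KO + IgG tumors that stand in the comparison with WT. The median of the summed level was 344 against 216 CPM, and 1 of 4 anti-γδTCR tumors, replicate 4 with 984 CPM, lay above every IgG tumor. All differences were above 0, from 0.67 ± 0.94 for Tnni2 to 2.10 ± 1.01 for Tnnc2, with a median of 1.46 against 0.02 over 16481 genes (51.9% higher). The difference of every member was smaller in edgeR, from 0.46 for Tnni2 to 1.39 for Tnnc2, with a median of 1.01. The limma adjusted p of the members ran from 0.264 to 0.733. Limma called 0% of all genes (21.7% at an unadjusted p under 0.05), edgeR 0% (18.7%) and DESeq2 6.29%, and 0 members were called by any of them or passed unadjusted. No member had groups that did not overlap, against 9.54% of all genes. Replicate 4 of IL-38 KO + IgG is the control library with low depth and many pseudogene reads, as are all 4 anti-γδTCR libraries, so apart from that replicate the treatment and this property cannot be told apart. Without that replicate limma called 2357 genes and still 0 members, the median difference was 0.40, and Tnni2 was at −0.08. Without anti-γδTCR replicate 2 the median was 2.14. Differences above 0 were also found for 8 of 8 smooth muscle genes (median 0.61, 3 unadjusted) and 6 of 6 myoepithelial genes (0.54, 2 unadjusted). The same held for 8 of 8 luminal epithelial genes (0.24, 2 unadjusted) and 4 of 10 adipocyte genes (−0.04). Peripheral nerve genes went the other way, with 5 of 6 below 0 (median −0.31, 1 of them unadjusted). They summed to 55.5 to 83.7 CPM with anti-γδTCR against 94.6 to 188 CPM in IL-38 KO + IgG. No gene of these lists passed the test. The part of these tissues in the muscle values was not tested either.

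**Figure D4:**
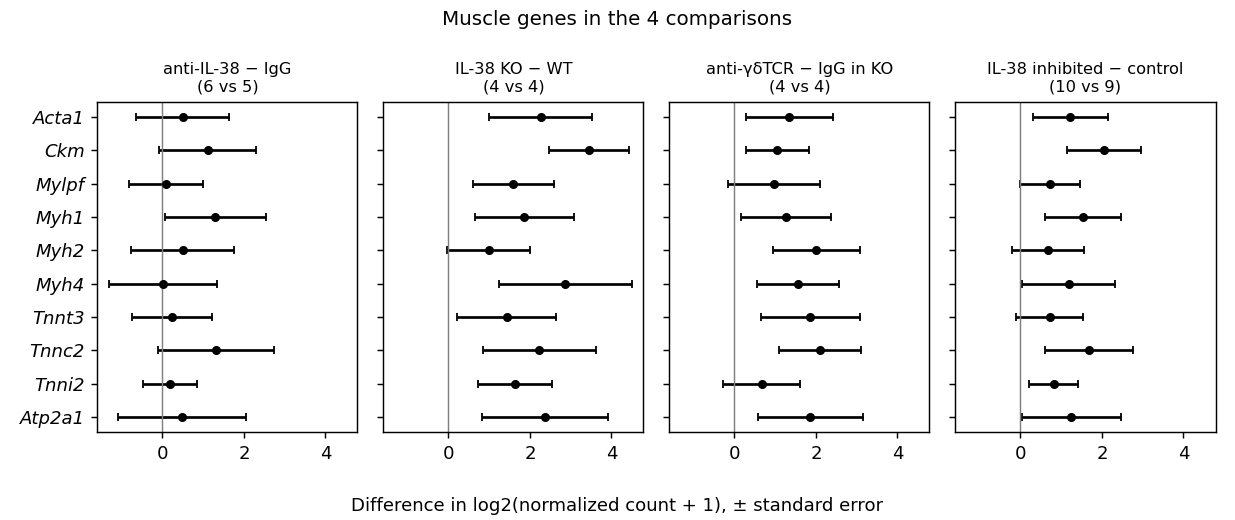
Difference in log2(normalized count + 1) of each muscle gene (points) with its standard error (bars) in 4 comparisons; the vertical line is no difference. All points lie at or above 0.01, and the largest, Ckm at 3.46 in IL-38 KO against WT, did not pass the test after adjustment.

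With both ways of removing IL-38 pooled, 10 tumors (anti-IL-38 and IL-38 KO + IgG) were compared with 9 controls (IgG and WT + IgG). The median of the summed level was 82.9 against 67.2 CPM, and 4 of the 10 exceeded the highest control. Differences ran from 0.68 ± 0.89 for Myh2 to 2.05 ± 0.90 for Ckm (unadjusted p = 0.033, limma adjusted p = 0.433), with a median of 1.20 against 0.00 over 16352 genes (50.6% higher). Limma called 0% of all genes, edgeR 0.00612% and DESeq2 0.428%, with 0 members. At an unadjusted p under 0.05, 1 member, Ckm, passed in limma (10.5% of all genes) and 3, Ckm, Tnnc2 and Tnni2, in edgeR (11.6%). Groups that did not overlap were found for 0% of all genes and no member. The values within each experiment are those of the 2 comparisons above, and they differed in size. The antibody effect minus the knockout effect, tested as an interaction over 19 libraries, was below 0 for all 10 members, from −0.49 ± 1.85 for Myh2 to −2.85 ± 2.31 for Myh4, with a median of −1.48. The lowest limma adjusted p was 0.780. Limma called 0.00612% of all genes in this test (7.67% at an unadjusted p under 0.05), edgeR 0% and DESeq2 0.135%, with 0 members at any of these.

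Other genes of fast muscle followed the members. A list of 24 other sarcomere and membrane genes summed to 24.0 to 953 CPM, and the mean of their log2(CPM + 1) correlated with that of the members at r = 0.98 (Spearman 0.98, n = 23), 0.99 within the neutralization experiment (n = 11) and 0.98 within the genotype experiment (n = 12). Without the pair of libraries farthest from the median it was 0.98 over all. Ttn, the giant spring of the sarcomere, ran from 0.957 to 336 CPM (r = 0.96), Neb, the ruler of the thin filament, from 0.348 to 82.1 CPM (r = 0.99), and Myl1, the fast essential light chain, from 0.928 to 140 CPM (r = 0.96). Ldb3, a Z-disc protein, did not follow them, at 4.54 to 28.9 CPM with r = 0.28. In the comparisons, 21 of the 21 tested genes of this list were higher in IL-38 KO than in WT tumors (median 1.74, 5 unadjusted), 14 of 21 with anti-IL-38 (0.16), 24 of 24 with anti-γδTCR (1.20, 2 unadjusted) and 18 of 21 with IL-38 inhibited (0.85, 1 unadjusted). None passed the test in limma. These counts rest on the same tumors as those of the members and are no separate support.

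Metabolic genes of muscle split. Over the 12 listed genes the mean level correlated with the members at r = 0.91 (n = 23; 0.94 and 0.90 within the experiments, 0.87 without the pair of libraries farthest out). Pygm, the muscle glycogen phosphorylase, ran from 0.348 to 25.4 CPM with r = 0.97. Mb, myoglobin, had r = 0.62 at 5.06 to 38.5 CPM. Car3, a carbonic anhydrase that fat also makes in quantity, had r = 0.38 at 2.14 to 285 CPM, and Fbp2, the muscle fructose bisphosphatase, had r = 0.22 at 0.342 to 21.2 CPM. Higher values were found for 9 of 11 tested genes of this list in IL-38 KO tumors (median 0.98, 2 unadjusted), 6 of 9 with anti-IL-38 (0.05), 8 of 11 with anti-γδTCR (0.57, 1 unadjusted) and 8 of 10 with IL-38 inhibited (0.43), and none passed the test. Lower values at an unadjusted p under 0.05 in limma were found for 1 gene in IL-38 KO tumors and 1 with anti-γδTCR.

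Slow and heart muscle markers were low. The 8 genes of slow fibers summed to 0.464 to 4.78 CPM (r = 0.41 with the members over 23 libraries, 0.60 and 0.38 within the experiments), and Myh7, the slow myosin heavy chain, had a read in only 4 libraries. By mean CPM the first of the list were Tnnc1, at 0.159 to 2.01 CPM, and Tnnt1, at 0 to 1.72 CPM, with r = −0.09 and 0.04, followed by Tnni1 (0 to 1.12 CPM, r = 0.44) and Myoz2 (0 to 0.624 CPM, r = 0.67). Slow fibers keep their own troponin subunits, the counterparts of Tnnc2, Tnnt3 and Tnni2. Among 12 genes of developing or regenerating muscle, Ncam1, a cell adhesion molecule that nerve and other cells make too, was at 121 to 344 CPM. By mean CPM the next were Myl4 at 0.25 to 1.89 CPM, Myh8, the perinatal myosin, at 0 to 3.96 CPM and Chrna1, an acetylcholine receptor subunit, at 0 to 0.693 CPM. Myod1 and Myog, which drive myoblasts into muscle, had a read in 3 and 8 libraries, and Pax7, the satellite cell factor, in 2. The list correlated with the members at r = 0.41 (0.68 and 0.31 within the experiments). The 7 heart genes summed to 2.90 to 14.8 CPM (r = 0.36 over 23 libraries, 0.67 and −0.16 within the experiments). Myh6 and Nppa, the heart's own myosin heavy chain and natriuretic peptide, were at 0 in all libraries, and Tnni3 and Tnnt2 had the highest mean CPM of the list, at 0.592 to 11.1 and 0.223 to 3.43 CPM.

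Of the tissues that could lie around a mammary tumor, none had a correlation with the muscle genes as high as that of the other fast muscle genes. Smooth muscle genes summed to 108 to 1883 CPM with r = −0.05 (0.01 and −0.50 within the experiments), and the highest by mean CPM, Acta2 (50.1 CPM at the lowest) and Myh11 (2.23 to 202 CPM), had r = −0.09 and 0.10. Adipocyte genes summed to 40.4 to 681 CPM with r = 0.21. Within the neutralization experiment that r was 0.56, and −0.14 without anti-IL-38 replicates 3 and 4, on which it rested; within the genotype experiment it was −0.36. The highest by mean CPM, Cfd at 1.11 to 488 CPM and Fabp4 at 8.13 to 149 CPM, had r = 0.34 and −0.03. Myoepithelial genes had r = 0.14 over the 23 libraries, luminal epithelial genes 0.34, brown fat genes 0.04, skin and hair genes 0.20 and peripheral nerve genes 0.26. Without the 5 libraries of low depth and many pseudogene reads the r of the nerve genes was 0.65 (Spearman 0.63, n = 18), and 0.47 when anti-IL-38 replicate 4 and IL-38 KO + IgG replicate 2 were left out too. In these 18 libraries it was 0.54 for slow, 0.59 for developing and 0.50 for heart muscle genes. The genes of these lists with the highest mean CPM ran as follows over the libraries, with r against the members in brackets. The epithelial adhesion genes Cdh1 and Epcam were at 725 CPM or more (0.43) and 220 CPM or more (0.49). The contractile kinase Mylk ran from 32.6 to 696 CPM (−0.07) and the basal keratin Krt5 from 2.68 to 145 CPM (0.09). The mitochondrial regulator Ppargc1a was at 2.17 to 12.2 CPM (−0.27) and the lipid droplet gene Cidea at 0.233 to 10.6 CPM (0.07), and the skin keratins Krt10 and Krt1 were at 1.72 to 17.2 CPM (0.16) and 0 to 4.18 CPM (0.08). The myelin genes Ncmap and Mbp ran from 11.5 to 112 CPM (0.06) and from 24.5 to 47.7 CPM (−0.34). The number of reads counted on genes had r = −0.26 with the muscle level, and 0.17 in these 18 libraries. Whether the muscle RNA came from tissue cut along with the tumor or from muscle enclosed by it was not tested.

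**Figure D5:**
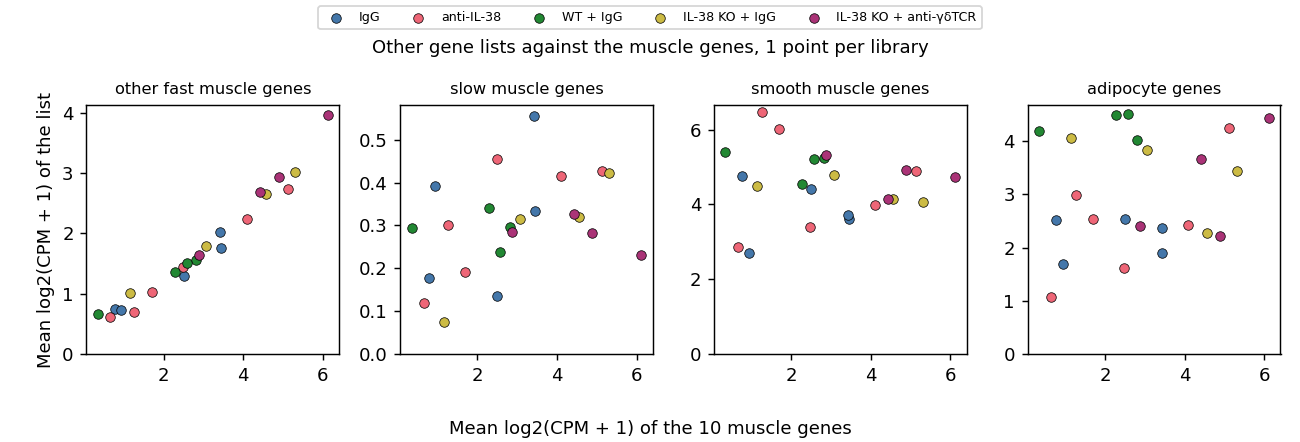
Mean log2(CPM + 1) of 4 gene lists (other fast muscle, slow muscle, smooth muscle, adipocyte; the vertical scales differ) against that of the 10 muscle genes, with each library a point colored by group. The other fast muscle genes lie along a line (r = 0.98), while smooth muscle (r = −0.05) and adipocyte genes (r = 0.21) scatter.

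Among 14713 genes outside the members with a mean of at least 1 CPM, the 10 most like the mean of the members over the 23 libraries were Neb (Pearson r = 0.987), Pygm (0.972), Myl1 (0.960), Ttn (0.958), Pvalb (0.954), Trdn (0.95), Xirp2 (0.945), Actn3 (0.942), Smpx (0.930) and Myom2 (0.927). Pvalb binds calcium in fast fibers, Trdn anchors the calcium release complex, and Actn3 is the Z-disc actinin of fast fibers. All 10 stand on the muscle lists, and 8 of them were also among the first 10 by Spearman correlation. Pvalb, Trdn, Xirp2, Actn3, Smpx and Myom2 were at 0 in at least 1 library. Of 21 genes with r of at least 0.8, 18 were on the muscle lists. The other 3, chosen for naming after their values were seen, were Klhl41, Nrap and Des, all of them genes of striated muscle, Des also of smooth muscle. The lowest r of any gene was −0.73, and 3 genes were at or below −0.7.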

How the data were processed

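Each deposited value is a signal, a read count that the authors divided by the size factor of its library. They did this in a table of 19 libraries (neutralization and genotype) and in a table of 8 (IL-38 KO without and with anti-γδTCR), and the 4 IL-38 KO + IgG libraries stand in both. The study names the QuantSeq pipeline of BlueBee Genomics, and the submitters' processing notes name STAR, HTSeq, DESeq2 and GRCm39. Division by the value of 1 read gave whole reads for 100% of values (tolerance 0.0001%). That value was 0.996 in WT + IgG replicate 1, near 1, and 100% of the values of this library were whole multiples of it within the same tolerance. CPM and depth come from these reads.

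Of 47643 identifiers, 47224 matched GENCODE M21 (GRCm38). In each comparison limma 3.58.1 (R 4.3.3; trend, two-sided) was fitted to log2(normalized count + 1) of the libraries compared, for all genes whose mean there was 5 or more. P-values were adjusted by Benjamini-Hochberg over the whole fit and called at 0.05. The 1 added before the logarithm can shrink differences of low genes. A difference on this scale can still lie above that of edgeR or below it. With anti-IL-38 it was 1.30 against 0.36 for Myh1 and 1.11 against 1.61 for Ckm. Replicates are the libraries that the labels number within a group. The alternatives were edgeR 4.0.16 (quasi-likelihood) and DESeq2 1.42.0 on the whole reads, pseudocounts, filters, rescaling, a replicate block, the experiment as a covariate and the omission of single libraries. Those of the interaction were chosen after seeing the data. The limma, edgeR and DESeq2 fits at the main settings were tested on simulated counts, and the other alternatives were not. The simulated spread was smaller than that of the members, so this test does not tell whether a change in them would be found. Intervals of shares are exact binomial ones at 95%.

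The members, lists and tests were chosen with earlier results of these data known. By rule the named genes are the 10 members, the 4 genes of each muscle list and the 2 of each other list with the highest mean CPM, and the 10 most correlated genes; others are named as markers given as rarely read, or where the text says so. Promoters are RefSeq's on GRCm38.p6, with 8 of 10 members matched. Protein sequences were not used here. Same-numbered libraries of different groups did not deviate together (r = −0.17 to 0.08), so the numbers do not pair them.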

Additional observations from a re-analysis of the deposited data

Results flagged for a closer look

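Of 55 groups of 4 to 6 libraries (10 genes and their sum in 5 groups), 3 held a library far from the rest by Dixon's ratio. That ratio is the gap to the nearest library over the whole range, both taken on log2(CPM + 1) and not on CPM. Chance alone gives about 1 in 20. All 3 were low values of WT + IgG replicate 1. They are Tnni2 (0.783 CPM, ratio 0.978), Myh2 (0.348 CPM, ratio 0.884) and the sum of the 10 genes (3.13 CPM, ratio 0.842). This library also held no read of 5 members, and without it the median difference of the members between IL-38 KO and WT tumors was 0.89 on the log2 scale in place of 2.05.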

How the results depend on the processing

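In 105 of 105 alternative fits no member was called. Of 1050 member differences refitted, 41 changed sign, 38 of them when a library was left out. Leaving out a library in turn gave, for anti-IL-38, Acta1 −0.26 to 1.05, Mylpf −0.49 to 0.57, Myh2 −0.23 to 1.23, Myh4 −0.82 to 0.78, Tnnt3 −0.38 to 0.66, Tnni2 −0.31 to 0.49 and Atp2a1 −0.61 to 1.46, for anti-γδTCR Tnni2 −0.079 to 1.33, and for the antibody minus the knockout effect Myh1 −1.63 to 0.51, Myh2 −1.22 to 0.40 and Tnnc2 −1.91 to 0.53. The latter was also 0.0054 in edgeR and 0.018 in DESeq2.

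The next ranges are of the median of the members over the alternatives other than leaving out a library in turn. They were 0.35 to 0.77 for anti-IL-38, 1.62 to 2.23 for IL-38 KO and 1.01 to 1.46 for anti-γδTCR. For IL-38 inhibited the range was 0.94 to 1.38, and −1.50 to −1.38 for the difference between antibody and knockout. Genes called over the whole table moved with the tool and with single libraries, which touched no member, and the cause was not tested. For anti-IL-38 DESeq2 called 75 and leaving out a library gave 0 to 6. For IL-38 KO edgeR called 0, DESeq2 305 and leaving out a library 0 to 7. For anti-γδTCR DESeq2 called 1036 and leaving out a library 0 to 2357. For IL-38 inhibited edgeR called 1, DESeq2 70, experiment as a term 1 and leaving out a library 0 to 23, and for the difference edgeR 0, DESeq2 22 and leaving out a library 0 to 2.

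With the replicate number as a replicate block, limma called 1 gene for anti-IL-38 and 0 for IL-38 KO, Myh4 with anti-IL-38 was at −0.029, and the medians of the members were 0.42, 2.05, 1.46 and 1.24 in the comparisons in the order of the report. The block needs a replicate number in both groups, so anti-IL-38 replicate 6 was left out for anti-IL-38 and for IL-38 inhibited. Depth limits the lowest tumor to 36 reads on the 10 genes, so single members there rest on a few reads.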
